A study of Mus musculus with 16 samples.

Results

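The importin α3 mouse line (alpha3) was set against the importin β1 line (beta), with both genotypes of each line pooled, in dorsal root ganglia of mouse embryos labelled as lumbar. All 16 libraries of the series entered: 8 alpha3 libraries, chosen by the line named in their titles, against 8 beta libraries, with genotype (knockout or wild type) as a covariate in the fit. Only autosomal genes were compared and the targeted genes Kpna4 and Kpnb1 were left out, which gave 14614 genes after a filter on low counts, of 23194 autosomal genes in the table. The alpha3 line held 4 importin α3 knockouts (KO_alpha3) and 4 wild types (WT_alpha3), and the beta line held 4 knockouts of importin β1 restricted to its 3′ UTR (KO_beta) and 4 wild types (WT_beta). The covariate treats the knockouts of both genes as the same genotype, so a difference between these knockouts enters the line difference. All groups were labelled as strain C57BL/6 at embryonic day 13.5, with no treatment. The labels name neither the founder animals, the number of backcrosses, the litters nor the days of dissection and sequencing, so the line cannot be told apart from any of these. Whether each library came from its own embryo is not stated either, and a p-value here refers to the spread among these samples, part of which may be technical.

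Dorsal root ganglia hold the cell bodies of sensory neurons and their glia. At mid-gestation the neural crest progenitors in them, kept in cycle by Notch signalling, are still giving rise to neurons, so the balance of progenitor and neuronal transcripts moves with the age of the ganglion. Primitive red blood cells change their globin genes over the same period, and Hox genes mark the position of a ganglion along the body axis.

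The targeted genes checked the labels of the α3 knockout. Kpna4, which encodes importin α3 (chromosome 3, 69072221 to 69127092), averaged 0.868 CPM (counts scaled to library size, with TMM factors that allow for differences in composition) in KO_alpha3, 76.0 CPM in WT_alpha3, 74.0 CPM in KO_beta and 77.7 CPM in WT_beta. Kpnb1, which encodes importin β1 (chromosome 11, 97159710 to 97187892), averaged 519 CPM in KO_alpha3, 451 CPM in WT_alpha3, 524 CPM in KO_beta and 426 CPM in WT_beta, so this count over the whole gene does not check a deletion in its 3′ UTR. Library totals were 19682595 to 24850289 counts in the alpha3 line and 21203919 to 26873361 in the beta line. The sensory neuron genes Isl1 (403 to 682 CPM over the 16 libraries), Pou4f1 (242 to 499 CPM) and Tubb3 (1871 to 2877 CPM) and the glial gene Sox10 (178 to 321 CPM) were present in every library. The caudal Hox genes varied far more. Hoxa10 was 0.897 to 76.2 CPM in the alpha3 line and 1.92 to 86.0 CPM in the beta line. Hoxc10 was 1.71 to 59.2 CPM in the alpha3 line and 2.65 to 96.1 CPM in the beta line. Whether every library is of lumbar level was not tested. Reads of the Y-linked genes were present in 2 of 4 KO_alpha3, 4 of 4 WT_alpha3, 4 of 4 KO_beta and 0 of 4 WT_beta libraries. The sexes were therefore unequal between the lines in opposite directions in wild types and knockouts.

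Few genes were called between the lines, some of them with a wide margin. The calls are no count of the genes that differ. Of all tested genes 12.6% had an unadjusted p under 0.05, with 3.33% among wild types alone and 9.04% among knockouts alone (edgeR). Genes vary together, so these shares are no such count either. At a Benjamini-Hochberg adjusted p under 0.05 in edgeR's quasi-likelihood test, 26 of the 14614 genes were called (0.178%), 12 higher (0.0821%) and 14 lower (0.0958%) in the alpha3 line. The size of these differences ran from 0.23 to 5.48 on the log2 scale with a median of 0.55, and 8 exceeded 1. In 15 of the 26 no alpha3 library overlapped any beta library. The count was 11 without KO_beta 402, 27 without WT_alpha3 55, 22 without WT_beta 401, 20 without WT_alpha3 54, 19 without WT_alpha3 45, and between 12 and 17 without any single one of the other 11 libraries. With library size in place of TMM scaling it was 25, but with 7 higher and 18 lower.

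The lowest p among genes higher in the alpha3 line belonged to 1500015A07Rik, a non-coding transcript antisense to the actin filament gene Afap1l1 (chromosome 18, 61726390 to 61728254, build GRCm38, as are all positions here). It was 12.9 to 17.3 CPM (median 16.4) in the alpha3 line and 3.20 to 4.85 CPM (median 3.79) in the beta line. Every alpha3 library lay far above every beta library, in knockouts and wild types alike. The log2 fold change was 2.03 ± 0.10 (SE), with an adjusted p of 1.2e-08 (edgeR). Afap1l1 itself, whose exons overlap it on the other strand, averaged 21.6 CPM in the alpha3 line and 25.3 CPM in the beta line (log2 fold change -0.23 ± 0.05, adjusted p = 0.0831, edgeR). No source used here gives the strand setting of the counting, and reads of the pair may be shared. This gene and the other 3 called clone names (Gm3893, 2210039B01Rik and Gm15446) fall outside the rule for named genes and were chosen after their values were seen.

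Rab3gap1, the catalytic subunit of the complex that switches off Rab3 GTPases in vesicle release (chromosome 1, 127868755 to 127943876), was 31.9 to 41.5 CPM (median 38.8) in the alpha3 line and 21.5 to 31.7 CPM in the beta line. The lines did not overlap, but WT_alpha3 79 at 31.9 CPM and WT_beta 415 at 31.7 CPM almost met, while the other alpha3 libraries were at 36.4 CPM or more and the other beta libraries at 23.9 CPM or less. The log2 fold change was 0.68 ± 0.08 (adjusted p = 0.000711, edgeR). Efcab7, a calcium-binding protein of the primary cilium that takes part in Hedgehog signalling (chromosome 4, 99829445 to 99912788), was 5.42 to 8.14 CPM (median 6.86) in the alpha3 line and 1.85 to 5.01 CPM (median 2.82) in the beta line. Its lines also did not overlap, and KO_beta 406 was the beta library nearest to the alpha3 line (log2 fold change 1.17 ± 0.18, adjusted p = 0.00980, edgeR).

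Rnf167, a membrane-bound ubiquitin ligase of endosomes and lysosomes, was 54.9 to 65.1 CPM in the alpha3 line and 41.5 to 52.9 CPM in the beta line, without overlap (log2 fold change 0.40 ± 0.05). Syvn1, the ubiquitin ligase that removes misfolded proteins from the endoplasmic reticulum, was 94.0 to 111 CPM in the alpha3 line and 74.8 to 93.0 CPM in the beta line, also without overlap (0.28 ± 0.05). Bag3, a co-chaperone of Hsp70, was 22.7 to 36.8 CPM in the alpha3 line and 17.7 to 24.1 CPM in the beta line, with a narrow overlap (0.55 ± 0.09). Cdkn1b, the cyclin-dependent kinase inhibitor p27, was 75.4 to 84.6 CPM in the alpha3 line and 61.6 to 76.3 CPM in the beta line (0.25 ± 0.04), and only KO_alpha3 50 and WT_beta 410 crossed. The stress-responsive kinase gene Plk3 was 23.5 to 37.3 CPM in the alpha3 line and 19.4 to 22.6 CPM in the beta line (0.47 ± 0.09), without overlap.

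The 4 others higher in the alpha3 line were Numbl, a Numb-like adaptor of neural progenitors (0.28 ± 0.05), Naif1, a nuclear protein linked to apoptosis (0.44 ± 0.08), the histone H2B gene Hist1h2bc (0.78 ± 0.14) and the pseudogene Tmem181b-ps (0.56 ± 0.10), all on the log2 scale. Hist1h2bc and Tmem181b-ps have near-identical copies elsewhere, so their reads may have been divided between copies and their values are uncertain. The adjusted p of the genes in this and the preceding paragraph ran up to 0.0446 for Tmem181b-ps (edgeR).

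**Figure D1:**
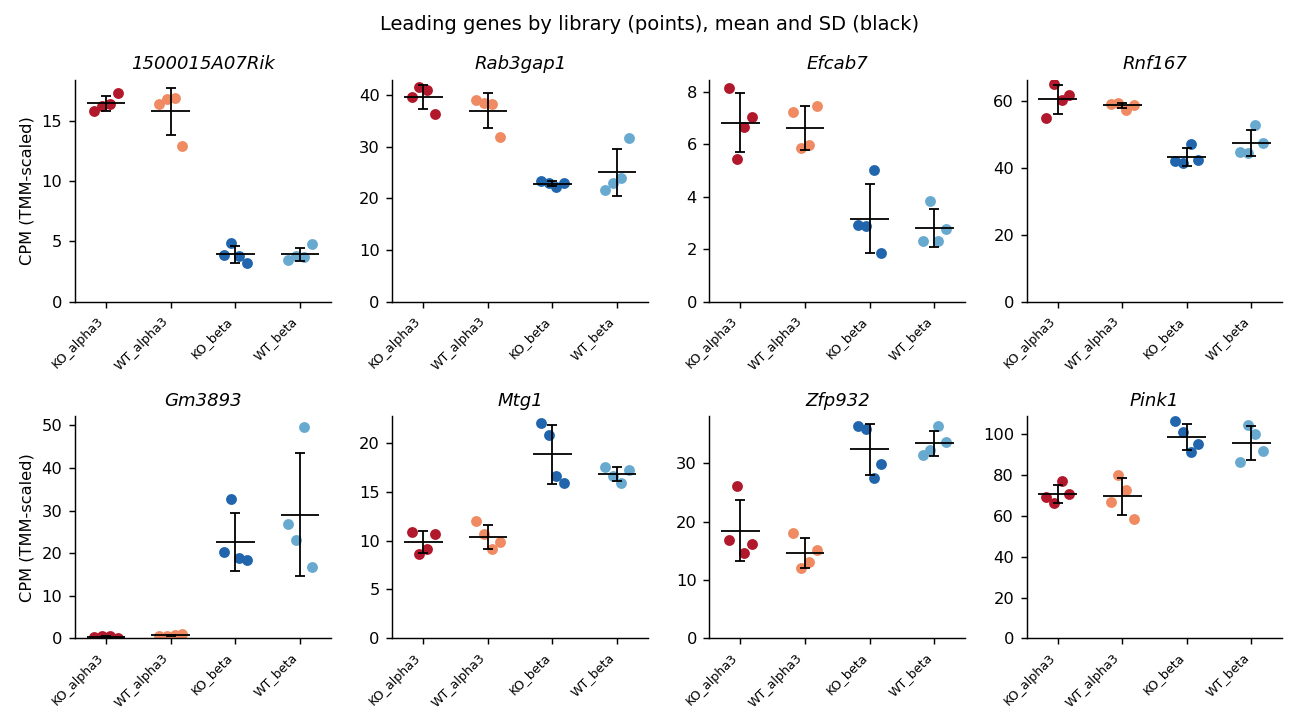
TMM-scaled CPM (vertical axes, starting at 0) of 4 genes higher and 4 genes lower in the alpha3 line, 1 point per library, in the groups KO_alpha3, WT_alpha3, KO_beta and WT_beta from left to right, with the mean and SD of each group of 4 in black. In each panel the 8 alpha3 points lie on 1 side of the 8 beta points, and knockouts and wild types of a line lie together. The genes shown were chosen after their values were seen, and all are among those without overlap.

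On the other side, Gm3893, a predicted gene annotated as protein-coding in GENCODE (chromosome 4, 42089373 to 42092930), was 0.171 to 0.952 CPM (median 0.595) in the alpha3 line and 16.7 to 49.6 CPM (median 21.8) in the beta line. It was near the limit of detection in all 8 alpha3 libraries and well expressed in all 8 beta libraries, with a log2 fold change of -5.48 ± 0.29 (adjusted p = 2.45e-08, edgeR). This stretch of chromosome 4 holds copies of the same genes, so which copy gave the reads is uncertain. The long non-coding RNA 2210039B01Rik (chromosome 12, 73548483 to 73551986) was 0.529 to 1.19 CPM in the alpha3 line and 1.73 to 6.40 CPM in the beta line, without overlap (-1.97 ± 0.23, adjusted p = 0.000711, edgeR).

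Mtg1, a GTPase that assembles the mitochondrial ribosome (chromosome 7, 140137564 to 140150786), was 8.64 to 11.96 CPM (median 10.2) in the alpha3 line and 15.9 to 21.99 CPM (median 16.9) in the beta line. The lines were apart by more than the range of the alpha3 libraries, with a log2 fold change of -0.81 ± 0.09 (adjusted p = 0.000711, edgeR). Mtg1 shares exon sequence on the opposite strand with Sprn, the gene of a prion-like protein, which averaged 34.6 CPM in the alpha3 line and 57.0 CPM in the beta line and was not called (-0.72 ± 0.35, adjusted p = 0.407, edgeR). Pink1, the kinase that marks damaged mitochondria for removal (chromosome 4, 138313409 to 138326296), was 58.5 to 80.02 CPM (median 70.0) in the alpha3 line and 86.3 to 106 CPM (median 97.6) in the beta line. Again no library overlapped (-0.47 ± 0.06, adjusted p = 0.00283, edgeR). Tigar, a phosphatase that diverts sugars from glycolysis, was 35.4 to 45.0 CPM in the alpha3 line and 43.0 to 53.3 CPM in the beta line, with overlap (-0.26 ± 0.05, adjusted p = 0.0473, edgeR). Of the list of nuclear-encoded respiratory chain genes, 0 of 81 tested members were called, 57 of them had a positive log2 fold change (against 52.8% of all genes), and their median was 0.05, against 0.01 over all genes.

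The zinc finger gene Zfp932 (chromosome 5, 109996502 to 110012266) was 12.1 to 26.1 CPM (median 15.7) in the alpha3 line and 27.5 to 36.4 CPM (median 32.9) in the beta line (-1.002 ± 0.13, adjusted p = 0.00189, edgeR). Its neighbour Gm15446, another predicted zinc finger gene whose start lies 62.9 kb away, was 0.176 to 1.94 CPM in the alpha3 line and 1.56 to 3.91 CPM in the beta line (-2.29 ± 0.40, adjusted p = 0.0259, edgeR). In both genes the highest alpha3 library was KO_alpha3 50, at 26.1 CPM for Zfp932 and 1.94 CPM for Gm15446, while the other 7 alpha3 libraries were at or below 18.02 CPM and 0.529 CPM. Zinc finger genes of such clusters resemble each other closely, so reads may be divided among them.

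Itfg2, a subunit of the KICSTOR complex that restrains the growth kinase mTORC1 (chromosome 6, 128409047 to 128424927), was 19.7 to 26.0 CPM in the alpha3 line and 29.7 to 34.0 CPM in the beta line (-0.44 ± 0.06, adjusted p = 0.00283, edgeR). Nrip2, whose exons overlap it on the other strand, had the opposite sign (0.43 ± 0.17, adjusted p = 0.351, edgeR). Camk2n1, an inhibitor of the kinase CaMKII, was 10.5 to 20.3 CPM in the alpha3 line and 18 to 30.2 CPM in the beta line (-0.78 ± 0.12, adjusted p = 0.0127, edgeR). Its target kinase gene Camk2a was also lower in every alpha3 library, at 9.40 to 31.2 CPM in the alpha3 line and 31.4 to 42.3 CPM in the beta line, but it was not called (-0.83 ± 0.22, adjusted p = 0.173, edgeR), and it was chosen after its values were seen.

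The remaining 5 genes lower in the alpha3 line had log2 fold changes of -0.23 to -1.92. They were Isoc1, an isochorismatase-domain protein (-0.34 ± 0.06), Ppp1r21, an endosomal protein (-0.23 ± 0.04), Cda, cytidine deaminase (-1.16 ± 0.20), the chemokine gene Ccl28 (-1.92 ± 0.35) and Mpp7, a scaffold of cell junctions (-0.53 ± 0.10). Ccl28 was low in both lines, at 0.171 to 1.26 CPM in the alpha3 line and 1.22 to 3.23 CPM in the beta line. Of the 26 genes, 9 share exon sequence with a gene on the opposite strand. The partners could be tested for 6 of these 9, and none of the partners was called. Among all genes, the residual pattern over the 16 libraries most like that of Mtg1, after group means were removed, was that of Dcaf11 (Pearson r = 0.84), Itpka (0.83) and Cmtr1 (0.81). These are the highest values among all tested genes. Such a choice gives high values by chance too, and a link to Mtg1 was not tested.

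Apart from calls, 31 genes had 8 alpha3 libraries all on 1 side of the 8 beta libraries (0.212% of those tested), 16 higher and 15 lower. With library size in place of TMM scaling the number was 33, with 8 higher and 25 lower. With 1 library left out it ran from 31 to 62, with 62 without WT_beta 401, 57 without WT_alpha3 55 or KO_beta 398, 48 without KO_beta 406 and 47 without WT_alpha3 45. Of those that did not pass the test, Kat2a, a histone acetyltransferase and the gene of lowest p near Kpnb1, was 99.1 to 114 CPM in the alpha3 line and 85.6 to 95.0 CPM in the beta line (0.20 ± 0.04, adjusted p = 0.0686, edgeR).

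Splitting the libraries by genotype gave 2 comparisons of the lines that share no library. Among knockouts the lines also differ in the targeted gene, which cannot be told apart from the line. Among wild types they differ in sex, with Y-linked reads in 4 of 4 WT_alpha3 and 0 of 4 WT_beta libraries, which cannot be told apart either. Among wild types (WT_alpha3 against WT_beta), 4 of 14755 genes were called (0.0271%): 1500015A07Rik higher, and Gm3893, Gm15446 and Zfp932 lower. Among knockouts (KO_alpha3 against KO_beta), 4 of 14547 genes were called (0.0275%): 1500015A07Rik, Rab3gap1 and Gm4349 higher, and Gm3893 lower. The count among knockouts was 1283 without KO_alpha3 50 and 2 without KO_beta 402 or KO_beta 406; among wild types it was 0 without WT_alpha3 55 or WT_beta 399, 1 without WT_beta 401 or WT_beta 410, and 2 without WT_alpha3 79. The leading genes had log2 fold changes of like size in both. They were chosen from the fit that pools both comparisons, which favours such likeness, so the values are descriptions and no check. 1500015A07Rik was at 2.05 ± 0.14 among knockouts and 2.01 ± 0.16 among wild types, and Gm3893 at -5.74 ± 0.36 among knockouts and -5.26 ± 0.40 among wild types. Mtg1 was at -0.94 ± 0.14 among knockouts and -0.69 ± 0.11 among wild types, and Pink1 at -0.49 ± 0.07 among knockouts and -0.45 ± 0.11 among wild types.

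Of 81 genes with an unadjusted p under 0.01 among wild types (0.549%), 78 had the same sign among knockouts, 96.3%. An unadjusted p under 0.05 in the same direction was found for 42 of them, 51.9%, and in the opposite direction for 0; over all genes tested among knockouts, 9.04% passed that threshold in either direction. Taking genes with p under 0.01 among knockouts first, 177 of 198 had the same sign among wild types, 89.4%, and 56 passed 0.05 in the same direction. Over all 14474 genes tested in both, 65.0% had the same sign and the log2 fold changes had a Pearson r of 0.48 (Spearman rho 0.41), across genes, which are not independent replicates. The progenitor list described below also had positive medians in both, 0.97 among knockouts and 0.44 among wild types, and its part in the shared direction was not tested.

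**Figure D2:**
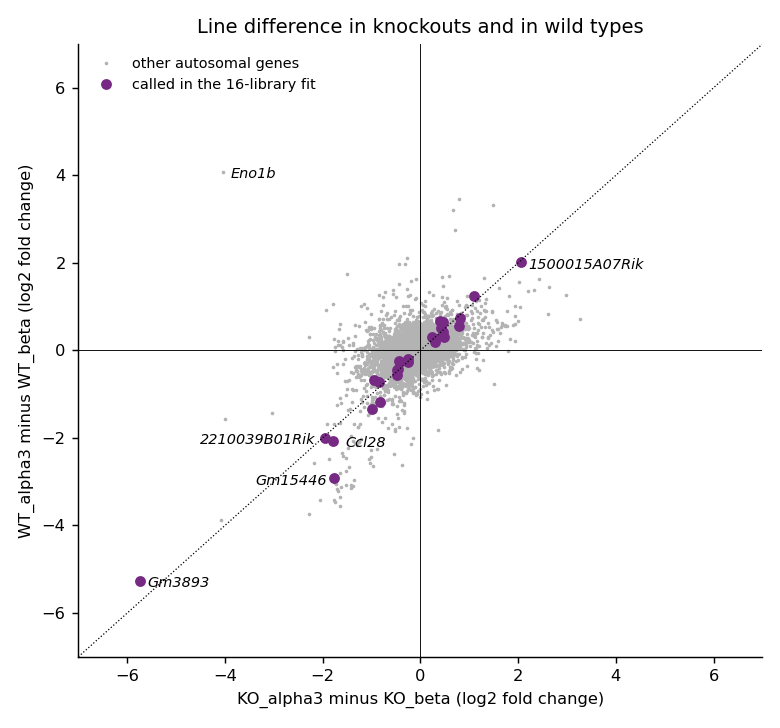
Log2 fold change of each autosomal gene between the lines among knockouts (horizontal axis, KO_alpha3 minus KO_beta) and among wild types (vertical axis, WT_alpha3 minus WT_beta); the dotted line marks equal values and purple points are genes called in the fit of 16 libraries. The called genes have the same sign in both comparisons, which their choice from a fit that pools both favours. Eno1b, which was not called, is at -4.03 among knockouts and 4.08 among wild types.

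The line difference itself was also tested for a dependence on genotype. No gene was called (0 of 14614, 0%) in edgeR's test of the interaction, 186 genes had an unadjusted p under 0.05 (1.27%), and DESeq2 called 0 as well. The lowest p belonged to Spop, an adaptor of a ubiquitin ligase complex, with a log2 fold change of 0.32 ± 0.05 in KO_alpha3 against KO_beta and -0.10 ± 0.10 in WT_alpha3 against WT_beta (unadjusted p = 0.000518, edgeR). Its values were 140 to 148 CPM in KO_alpha3, 101 to 124 CPM in WT_alpha3, 112 to 117 CPM in KO_beta and 116 to 140 CPM in WT_beta. None of the 26 called genes had an unadjusted interaction p under 0.05. They were chosen in a fit without that interaction, which favours genes alike in both genotypes, so this count is a description only.

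According to its design text, the study set each knockout against all 8 wild types, and so against both lines. No gene was called in these comparisons or within a line, and 10.5% of genes had an unadjusted p under 0.05 for KO_alpha3 against the 8 wild types and 6.04% for KO_alpha3 against WT_alpha3, with 2.18% for KO_beta against the 8 wild types and 1.82% for KO_beta against WT_beta (edgeR). The log2 difference of Gm3893 was -0.83 ± 0.45 in KO_alpha3 against WT_alpha3 and -5.14 in KO_alpha3 against the 8 wild types. That of 2210039B01Rik was -0.39 ± 0.34 against WT_alpha3 and -1.72 against the 8 wild types, and that of Mtg1 was -0.08 ± 0.13 against WT_alpha3 and -0.47 against the 8 wild types. Isoc1 was -0.32 ± 0.08 in KO_alpha3 against WT_alpha3 and -0.45 against the 8 wild types. Its levels were 37.6 to 43.8 CPM in KO_alpha3, 46.1 to 54.4 CPM in WT_alpha3, 53.2 to 54.8 CPM in KO_beta and 54.0 to 67.6 CPM in WT_beta. These comparisons share libraries with the line comparison, so their values are given side by side only.

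Near the called genes on the chromosomes, a larger share of genes had a low p than elsewhere; this was not tested. Within 1 Mb of the 26 called genes lay 571 other tested genes, of which 20.5% had an unadjusted p under 0.05 and 7.36% an unadjusted p under 0.01. Among the 14017 genes farther away the shares were 12.1% and 3.09%. Neighbouring genes can share regulation and strand overlaps, so they are not independent. The stretches described next were chosen after their values were seen, and each is bounded by genes of low p, which raises its share.

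On chromosome 4, from 136979732 to 141874920, 13 of 63 tested genes had a p under 0.01 (3.43% of all genes did), 4 higher and 9 lower, and 3 were called. These were Pink1, Cda and Camk2n1, whose starts lie within 142 kb. Around them Hp1bp3, a heterochromatin protein, averaged 183 CPM in the alpha3 line and 222 CPM in the beta line (-0.28 ± 0.06, adjusted p = 0.0831), and Aldh4a1, a mitochondrial enzyme of proline breakdown, averaged 30.6 CPM in the alpha3 line and 41.3 CPM in the beta line (-0.43 ± 0.09, adjusted p = 0.0831, both edgeR). On chromosome 6, from 124396816 to 134925525, 19 of 87 tested genes had a p under 0.01, 7 higher and 12 lower, and Itfg2, Tigar and Cdkn1b were called. In the same stretch some genes of low level were lower without being called. The complement protease genes C1rl (-1.79 ± 0.45) and C1s1 (-1.76 ± 0.43) averaged 0.348 and 0.591 CPM in the alpha3 line and 1.19 and 2.18 CPM in the beta line. The protease inhibitor gene Pzp (-3.10 ± 0.92) averaged 0.576 CPM in the alpha3 line and 6.17 CPM in the beta line. The part of other tissues in these values was not tested. The glycolytic gene Gapdh averaged 706 CPM in the alpha3 line and 590 CPM in the beta line (0.26 ± 0.07, adjusted p = 0.206, edgeR).

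On chromosome 18, from 58659482 to 62015719, 8 of 32 tested genes had a p under 0.01, 3 higher and 5 lower. This stretch runs from Isoc1 to Sh3tc2, a Schwann cell protein of endosome recycling (-0.45 ± 0.09, adjusted p = 0.0686, edgeR), and holds 1500015A07Rik, Afap1l1 and Camk2a. On chromosome 13, from 19623175 to 23692480, 7 of 20 had a p under 0.01, 6 higher and 1 lower, among them Elmo1, a regulator of Rac, at 67.4 CPM in the alpha3 line and 42.9 CPM in the beta line (0.64 ± 0.14, adjusted p = 0.0831, edgeR) and the called Hist1h2bc. Of the 46 genes within 10 Mb of Kpna4, 0 were called and 8 had an unadjusted p under 0.05 (17.4%), and of the 307 within 10 Mb of Kpnb1, 0 were called and 36 had one (11.7%), against 12.6% over all genes.

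**Figure D3:**
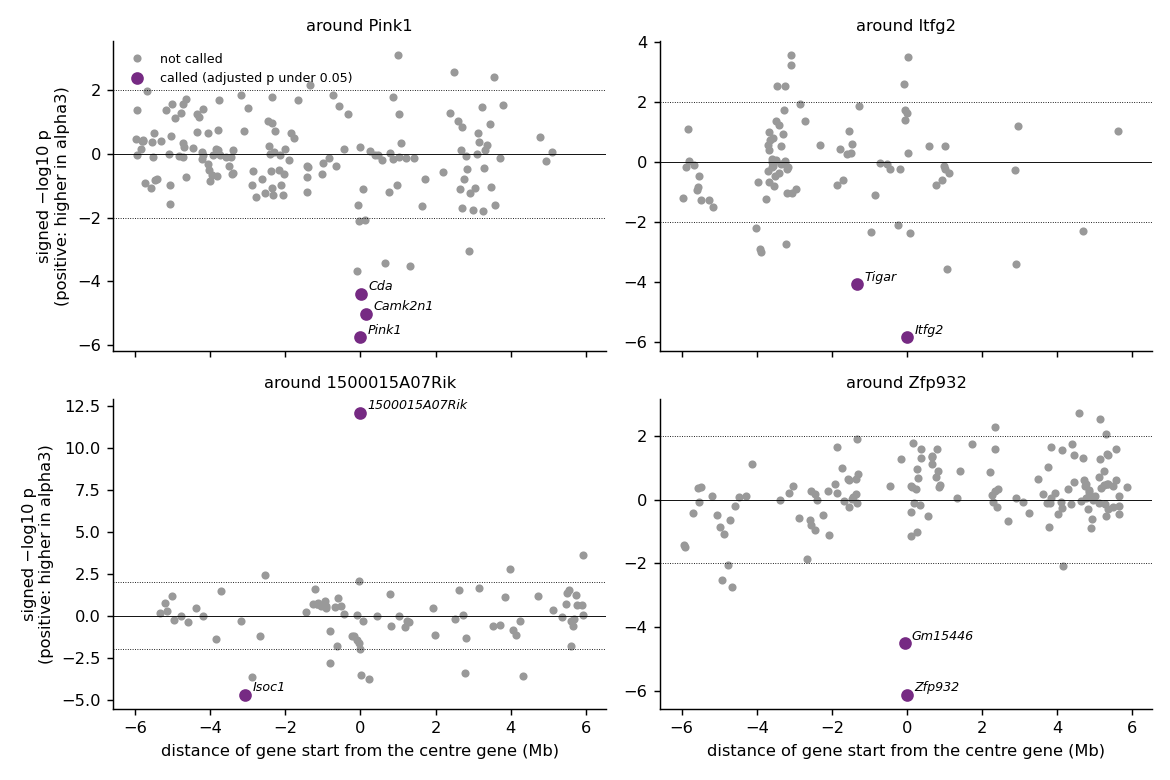
Signed −log10 of the unadjusted p of each tested gene (vertical axes, positive where higher in the alpha3 line) against the distance of its start from a called gene (horizontal axis, Mb) around Pink1, Itfg2, 1500015A07Rik and Zfp932; purple points are called genes and dotted lines mark a p of 0.01. Called genes lie together at Pink1 and a pair lies at Zfp932, and uncalled genes past the dotted lines lie on both sides of 0.

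Genes at which C57BL/6 sublines are known to carry variants were looked at as a list. Of the 8 tested genes of a list of such loci, 0 were called and 0 had an unadjusted p under 0.05. Nnt, the mitochondrial transhydrogenase that carries a deletion in the C57BL/6J subline, was 29.4 to 47.3 CPM in the alpha3 line and 17.9 to 36.0 CPM in the beta line (0.28 ± 0.14, adjusted p = 0.422, edgeR).

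Beyond the called genes, whole groups of genes leaned to one line. Over all tested genes 1184 had an unadjusted p under 0.05 and were higher in the alpha3 line (8.1%) and 656 were lower (4.49%), and the median log2 fold change was 0.01. In bulk samples fewer cells of a type and less RNA per cell cannot be told apart. The groups below are described by counts and medians, and few of their members were called.

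Progenitor and Notch genes leaned higher in the alpha3 line, with the highest values in 4 of its libraries. Of 27 tested members 24 had a positive log2 fold change, 15 had an unadjusted p under 0.05 and were higher, 0 were called and the median was 0.66. Hes5, a Notch target that keeps progenitors undifferentiated, was 25.4, 8.64, 8.69 and 29.1 CPM in KO_alpha3, 19.4, 7.69, 8.89 and 27.1 CPM in WT_alpha3, and 6.73 to 10.3 CPM (median 7.27) in the beta line. Of the alpha3 libraries 4 were high (KO_alpha3 42 and 81, WT_alpha3 45 and 79) and the other 4 lay within the beta range (1.12 ± 0.30, adjusted p = 0.186, edgeR). Notch1, the receptor, was 155 to 242 CPM in the alpha3 line and 124 to 168 CPM in the beta line (0.36 ± 0.11, adjusted p = 0.241, edgeR). These 4 libraries are also the 4 highest of all 16 in the mean of the list. Values without them, given for other lists below, set the 4 alpha3 libraries lowest in progenitor genes against all 8 beta libraries. For genes that vary with the progenitor list such values shift downwards or upwards through that choice alone, so they are descriptions and no check of a difference between the lines.

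Cell cycle genes had 41 of 42 members positive, 0 called and a median of 0.46. Ccnd2, the G1 cyclin D2, was 73.3 to 170 CPM in the alpha3 line and 71.5 to 110 CPM in the beta line (0.49 ± 0.18, adjusted p = 0.324, edgeR). Ribosomal protein genes were positive in 74 of 76, with 0 called and a median of 0.12, which was -0.10 without the 4 libraries high in progenitor genes. The embryonic globin gene Hbb-bh1 was 33.5 and 127 CPM in KO_alpha3 42 and 81, 130 and 335 CPM in WT_alpha3 45 and 79, 2.47 to 6.40 CPM in the other 4 alpha3 libraries and 2.20 to 35.0 CPM in the beta line. The progenitor mean had an SD of 0.813 log2 CPM over the 8 alpha3 libraries and 0.324 over the 8 beta libraries. Across all genes the within-group variance was larger in the alpha3 line for 76.6%, with a median SD of 0.248 log2 CPM in the alpha3 line and 0.148 in the beta line.

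**Figure D4:**
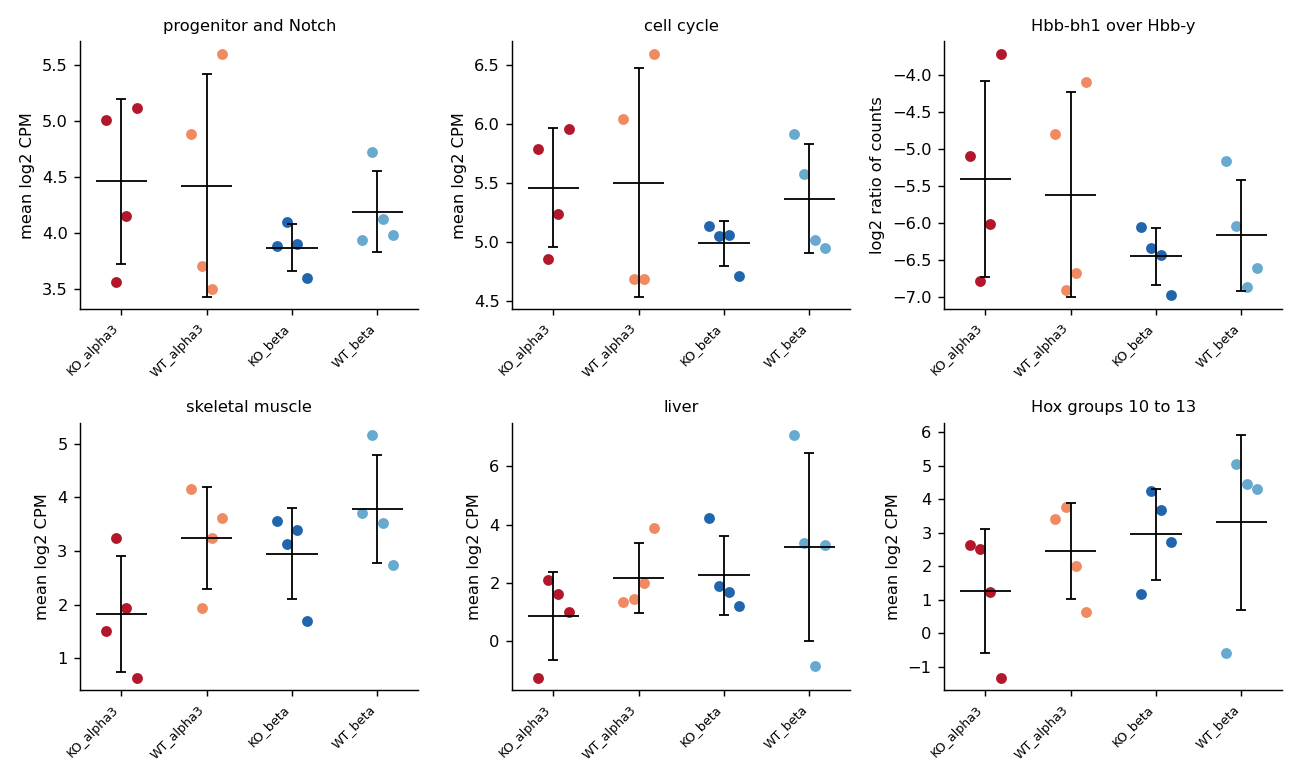
Mean log2 CPM of the genes of 5 lists, and the log2 ratio of Hbb-bh1 to Hbb-y counts, for each library (points) in KO_alpha3, WT_alpha3, KO_beta and WT_beta from left to right, with the mean and SD of each group of 4 in black. In the upper panels the alpha3 libraries reach both above and below most beta libraries, and in the lower panels the group means are lower in the alpha3 line within each genotype while single libraries overlap.

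Of 34 tested pan-neuronal genes 17 were positive and 17 negative, with 0 called and a median of 0.00. Tlx3, a homeodomain factor of sensory neurons, was 161 to 251 CPM in the alpha3 line and 144 to 183 CPM in the beta line (0.27 ± 0.07, adjusted p = 0.198, edgeR). Genes of the nociceptor lineage had 17 of 22 negative members, 0 called and a median of -0.19, which was 0.23 without the 4 libraries high in progenitor genes. Among mechanoreceptor and proprioceptor genes 14 of 25 were negative, with a median of -0.02, and among glial genes 16 of 28 were negative, with a median of -0.07, and neither list had a called member. Sox10, the glial lineage factor, was 239 to 321 CPM in the alpha3 line and 178 to 264 CPM in the beta line (0.28 ± 0.08, adjusted p = 0.214, edgeR).

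Transcripts of other tissues leaned lower in the alpha3 line, without calls. All 15 tested liver genes were negative with 14 at an unadjusted p under 0.05 and a median of -2.20, which was -0.95 without WT_beta 399. Their summed level was 17.9 to 479 CPM in the alpha3 line and 25.3 to 5568 CPM in the beta line. The iron carrier gene Trf was 12.1 to 55.4 CPM in the alpha3 line and 16.0 to 535 CPM in the beta line, with the highest value in WT_beta 399 (-1.73 ± 0.60, adjusted p = 0.304, edgeR). All 25 skeletal muscle genes were negative (median -0.77, 3 at an unadjusted p under 0.05; summed level 82.3 to 809 CPM in the alpha3 line and 139 to 1580 CPM in the beta line), and the embryonic myosin gene Myh3 was 4.10 to 97.3 CPM in the alpha3 line and 10.6 to 284 CPM in the beta line (-1.22 ± 0.53, adjusted p = 0.371, edgeR). Epidermal genes were negative in 19 of 20 (median -0.56, 5 at an unadjusted p under 0.05). Perp, a component of desmosomes, was 0.814 to 3.33 CPM in the alpha3 line and 2.85 to 6.23 CPM in the beta line (-0.96 ± 0.21, adjusted p = 0.0902, edgeR). Macrophage genes were negative in 19 of 19 (median -0.21, and -0.12 without WT_beta 399), among them the growth factor receptor gene Csf1r (-0.34 ± 0.12, adjusted p = 0.333, edgeR). The part of these tissues in the called genes was not tested. A score of other tissues averaged skeletal muscle, spinal cord, sympathetic ganglion, epidermal and liver genes, without macrophage genes. When the 4 libraries highest in it, all wild types, were left out, 9 genes were called, 8 of which were among the 26.

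Sympathetic ganglion genes leaned the other way, with 13 of 17 positive and a median of 0.47. It was -0.22 without the 4 libraries highest in markers of other tissues (WT_alpha3 45 and 79, WT_beta 399 and 401). Sympathetic genes are part of that score, and their highest means were in WT_alpha3 45, WT_beta 401 and WT_alpha3 79 (5.27, 4.45 and 4.20 log2 CPM). Leaving these libraries out moves the median through that choice, so the value is a description and no check. The median was 0.92 among wild types and -0.18 among knockouts. Spinal cord genes were negative in 14 of 19 with a median of -0.26, which was -0.42 without WT_beta 399, -0.85 with the progenitor mean as covariate and -1.24 without the 4 libraries high in progenitor genes. Neither list had a called member. Fibroblast genes (18 of 26 negative, median -0.06, and -0.11 without WT_beta 399), cartilage genes (8 of 12 positive, median 0.33) and endothelial genes (13 of 24 positive, median 0.02) had 0 called members as well.

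Of 19 Hox genes of groups 4 to 9, 16 were positive and 9 had an unadjusted p under 0.05, with a median of 0.50, which was -0.05 without the 4 libraries high in progenitor genes. Hoxa7 was 61.3 to 160 CPM in the alpha3 line and 50.1 to 67.6 CPM in the beta line (0.62 ± 0.18, adjusted p = 0.223, edgeR). All 6 tested genes of groups 10 to 13, which are expressed at lumbar and more caudal levels, were negative with a median of -1.20. Hoxd11 was 1.67, 1.59, 0.309 and 0.342 CPM in KO_alpha3, 13.2, 9.61, 0.909 and 2.30 CPM in WT_alpha3, 0.714, 20.9, 8.27 and 2.12 CPM in KO_beta and 0.423, 34.5, 25.1 and 11.1 CPM in WT_beta. It varied widely within every group (-2.16 ± 0.83, adjusted p = 0.340, edgeR), and no Hox gene was called. The difference between the 2 sets of Hox genes was not tested.

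Of 33 heat shock and unfolded protein genes 26 were positive, 14 had an unadjusted p under 0.05 and were higher, 0 were lower at that threshold and 1 was called, Bag3; the median was 0.08, with 0.12 without the 4 libraries high in other tissues and 0.08 without the 4 high in progenitor genes. Hyou1, a chaperone of the endoplasmic reticulum, was 134 to 194 CPM in the alpha3 line and 113 to 139 CPM in the beta line (0.30 ± 0.07, adjusted p = 0.133, edgeR). Importins, exportins and Ran genes were positive in 27 of 29, with 7 at an unadjusted p under 0.05, 0 called and a median of 0.11, which was 0.01 without the 4 libraries high in progenitor genes. The exportin gene Xpo6 was 140 to 177 CPM in the alpha3 line and 134 to 150 CPM in the beta line (0.17 ± 0.06, adjusted p = 0.291, edgeR). Of 67 replication-dependent histones on the list only 8 passed the filter in these libraries of polyA RNA, so they do not stand for the whole list. Among these 8, 7 were positive, with a median of 0.19 (0.29 without WT_beta 399) and 1 called, Hist1h2bc. Hist2h2be was the negative one, at 7.77 to 12.9 CPM in the alpha3 line and 12.8 to 15.6 CPM in the beta line (-0.39 ± 0.08, adjusted p = 0.0686, edgeR).

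**Figure D5:**
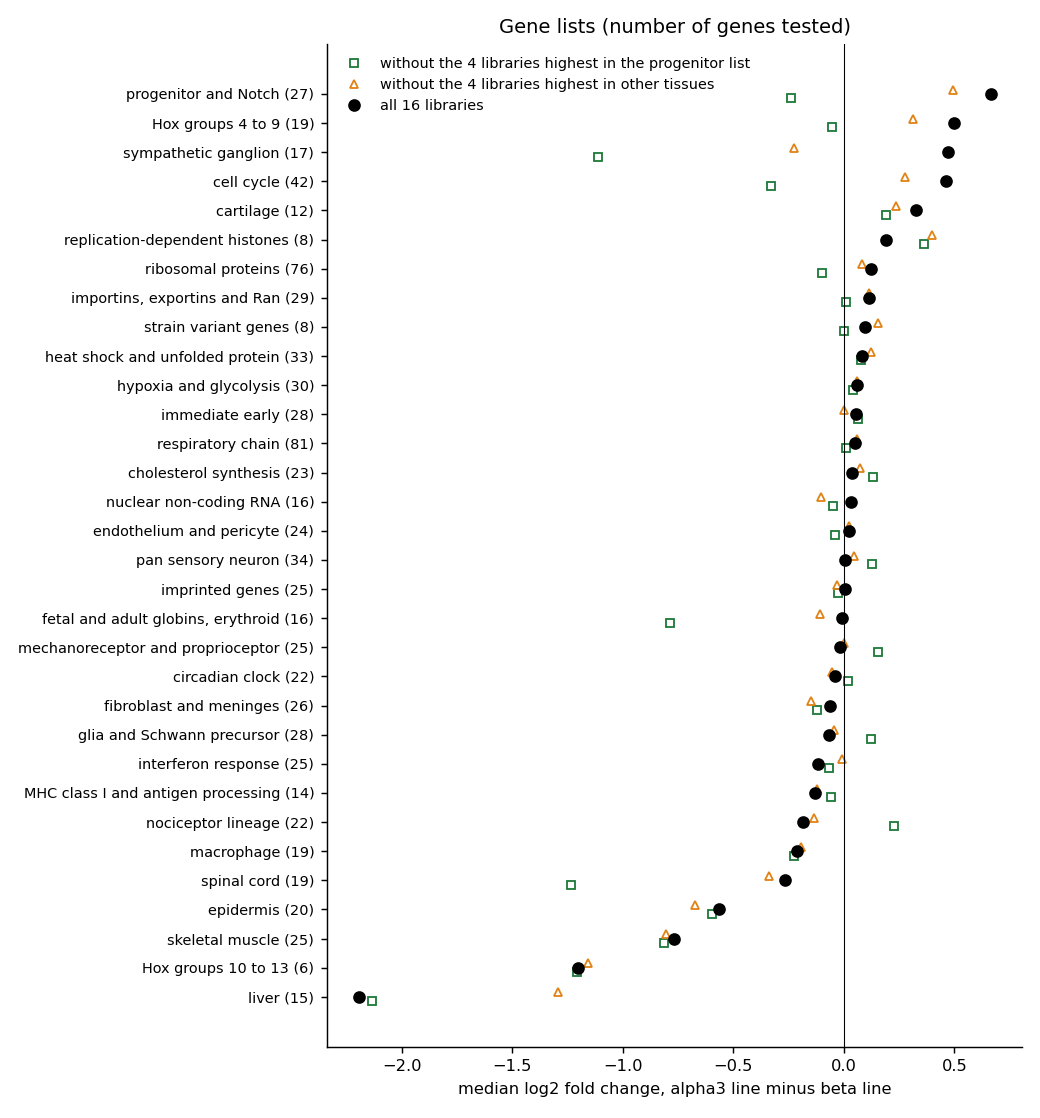
Median log2 fold change (alpha3 line minus beta line, horizontal axis) of the tested genes of each list, with the number of genes in brackets; black circles use all 16 libraries, squares leave out the 4 libraries highest in the progenitor list and triangles the 4 highest in markers of other tissues. The progenitor median is 0.66 and the liver median -2.20 in all libraries. The square of the progenitor list lies lower through the choice of the libraries left out. The triangles of skeletal muscle, spinal cord, sympathetic ganglion, epidermis and liver can also shift through that choice, because these lists make up the score.

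The other lists had 0 called members each. Their medians were 0.05 for immediate early genes (17 of 28 positive), 0.06 for hypoxia and glycolysis (18 of 30), 0.04 for cholesterol synthesis (17 of 23), -0.04 for the circadian clock (8 of 22), 0.03 for nuclear non-coding RNAs (9 of 16) and 0.00 for imprinted genes (13 of 25). Without WT_beta 399 the medians of immediate early genes, nuclear non-coding RNAs and imprinted genes were -0.02, -0.03 and -0.03. Globin and erythroid genes were positive in 8 of 16 with a median of -0.01, which was 0.73 without WT_beta 399, -0.57 with the progenitor mean as covariate and -0.79 without the 4 libraries high in progenitor genes. Interferon genes were negative in 19 of 25 with a median of -0.12, and genes of MHC class I and antigen processing in 9 of 14 with a median of -0.13. Without WT_beta 399 these medians were -0.04 for interferon genes and -0.05 for MHC class I and antigen processing. The class I gene H2-K1 was 1.45 to 5.66 CPM in the alpha3 line and 2.25 to 14.1 CPM in the beta line, with the highest value in WT_beta 399 (-0.78 ± 0.33, adjusted p = 0.370, edgeR).

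Most of the variation between libraries did not lie between the lines. After genotype, line took a median of 7.08% of a gene's variance and 11.1% of the variance summed over genes. No chance level was computed for these shares or for those of the components below. The first principal component of log2 CPM held 42.1% of the variance, and 12.3% of that component lay between the lines. Component 4 held 4.84%, and 33.2% of it lay between the lines. Measures of library quality, 5 in all, were compared by exact 2-sided permutation of line labels within genotype (4900 permutations, smallest possible p = 0.000408). Genes detected averaged 17893 ± 168 in the alpha3 line and 18087 ± 175 in the beta line (SD, n = 8 each; exact permutation p = 0.0196, Benjamini-Hochberg over 5 measures 0.0980). Total counts, the share of ribosomal protein genes, the share of the 100 highest genes and the ratio of Hbb-bh1 to adult β-globin counts had adjusted exact permutation p-values of 0.216 to 0.409.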

How the data were processed

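Per the labels' protocols, polyA RNA of lumbar dorsal root ganglia was sequenced in 4 groups of 4. Build mm10 and the tools HTSeq 0.6.1p1, TopHat2 2.0.10, DESeq2 1.6.3, bcl2fastq 2.17.1.14 and cutadapt stand in the submitters' processing notes, without roles. No source used here gives the annotation or strand setting. The authors deposited whole-number counts per gene symbol, not normalized, which every test used; their normalized table equals these counts times 1 constant per library and was not used. The table holds 24421 symbols, 24313 of them matched by symbol or synonym to RefSeq (GRCm38.p6) for positions, and no mitochondrially encoded gene, so the planned mitochondrial share could not be computed. Libraries differed by more than sampling noise, so none was counted as a duplicate.

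Counts were fitted with edgeR 4.0.16 in R 4.3.3 (filterByExpr, minimum count 10; TMM; quasi-likelihood tests, 2-sided, Benjamini-Hochberg over all autosomal genes tested at 0.05), with genotype as covariate. The spread given with a log2 fold change is its SE. Exon overlaps and GC content were read from GENCODE M21. Genes named are the called genes, the 2 of lowest p in each of 32 lists, those near the targets, Nnt and the interaction's lowest; some genes of the rule are not reported here; the text prints part of them, picked after values were seen. Members and lists were chosen with earlier results of these data known. Alternatives were other scalings, filters, covariates, library sets, DESeq2 1.42.0 and limma-voom (limma 3.58.1). The main fit was tried on simulated counts, with genes drawn independently and the same dispersion in both lines, unlike these data. It called 54% of genes simulated at 1.5-fold and 82% of those at 2-fold, with 6 false calls.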

Additional observations from a re-analysis of the deposited data

Results flagged for a closer look

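Of 124 sets of 4 libraries of 1 group examined (genes and library measures), 8 held 1 library far from the other 3, where chance gives about 1 in 20. 1500015A07Rik was 12.9 CPM in WT_alpha3 79, against 16.4 to 16.9 CPM in the other WT_alpha3 libraries. The same library was the lowest for Rab3gap1, at 31.9 CPM against 38.3 to 39.0 CPM. Gm3893 was 32.6 CPM in KO_beta 402, against 18.5 to 20.3 CPM in the other KO_beta libraries. Ccl28 was 1.26 CPM in WT_alpha3 55, against 0.275 to 0.369 CPM. Cdkn1b was 75.4 CPM in KO_alpha3 50, against 83.7 to 84.6 CPM in the other KO_alpha3 libraries, and 61.6 CPM in KO_beta 402, against 67.1 to 68.1 CPM in the other KO_beta libraries. Rnf167 was 47.0 CPM in KO_beta 406, against 41.5 to 42.3 CPM. 2210039B01Rik was 6.40 CPM in WT_beta 410, against 2.92 to 3.15 CPM in the other WT_beta libraries.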

How the results depend on the processing

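No paired analysis was possible because no replicate number is shared between groups. The count of 26 called genes was 16 with no filter beyond a count above 0, 210 with DESeq2, 45 with Y-linked reads as covariate, 50 with the progenitor mean as covariate, 51 with both, 9 without the 4 libraries highest in other tissues, 5 without the 4 highest in the progenitor list (added after the data were seen; all 4 are alpha3 libraries), 3 in libraries with Y-linked reads only, and 11 to 27 with 1 library left out. The cause was not tested, though fits with fewer libraries have less power by construction. Y-linked reads were present in 2 KO_alpha3, 4 WT_alpha3, 4 KO_beta and 0 WT_beta libraries. With genotype as covariate, the line effect in libraries with Y-linked reads only thus compares 2 KO_alpha3 with 4 KO_beta libraries. It says nothing of the lines among wild types. DESeq2 called 136 higher and 74 lower genes. The 26 genes were all among those called by DESeq2 and with the progenitor covariate, 23 were with Y-linked reads and 16 with both covariates, and each kept its sign in these fits. Upper quartile scaling gave 25, limma-voom 29 and no genotype covariate 23. Among wild types the 4 called genes became 20 with DESeq2 and 0 to 4 with 1 library left out; among knockouts 4 became 46 and 2 to 1283. The interaction gave 0 in each of its alternatives. Genes without overlap ran from 31 to 62 with 1 library left out.

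In 20 settings (4 other scalings or covariates, 16 single libraries left out) 11 of the 26 genes kept their call: 1500015A07Rik, Gm3893, 2210039B01Rik, Rab3gap1, Rnf167, Efcab7, Mtg1, Zfp932, Itfg2, Pink1 and Camk2n1. The other 15 lost it in some, and 0 changed sign. With the progenitor mean as covariate 2 genes that were not called changed sign, Btg2 to -0.0126 and Hbb-bh1 to -0.567. With 1 library left out, the difference in total counts (alpha3 minus beta) was -2276430 to -1375470 (exact permutation p = 0.0257 to 0.175), in genes detected -231 to -154 (0.00694 to 0.0645), in the share of ribosomal genes 0.0828 to 0.310 points, in the share of the 100 highest genes 0.146 to 0.360 points and in the log2 globin ratio 0.599 to 1.90.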

Other observations

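Eno1b, an enolase gene on chromosome 18 (48045335 to 48048379), was 1185 counts in WT_alpha3 54 and 1044 counts in KO_beta 406, and 15 to 45 counts in each of the other 14 libraries. It is 1 of the 5 genes with the lowest p for a dependence of the line difference on genotype, with 1 such library in each line.

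KO_alpha3 libraries were alike in 2 genes of chromosome 3, chosen after their values were seen. Gm4349 (95427349 to 95431085) had 24 to 36 counts in KO_alpha3, 3 to 21 counts in WT_alpha3, 3 to 8 counts in KO_beta and 1 to 9 counts in WT_beta. Cd1d2 (86986586 to 86989533) had 15 to 27 counts in KO_alpha3, 0 to 9 counts in WT_alpha3, 0 to 2 counts in KO_beta and 0 to 5 counts in WT_beta. Both lie on the chromosome of Kpna4, farther from it than 10 Mb.

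GC content differed between genes higher and lower at an unadjusted p. The median GC content was 53.2% in genes higher in the alpha3 line at an unadjusted p under 0.05 and 48.7% in genes lower at it, against 50.1% over all 14119 genes with a transcript. The share of genes with an unadjusted p under 0.05 was 9.24% in the 3530 genes of lowest GC content and 16.8% in the 3530 of highest. Across genes, Spearman rho of GC content and log2 fold change was 0.07 over the 16 libraries, -0.03 among knockouts and 0.19 among wild types. Its part in the counts of genes at an unadjusted p was not tested. The 12 called higher genes had a median of 48.2% and the 14 called lower genes 47.7%.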
